A study of Homo sapiens with 12 samples.

Results

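The negative elongation factor (NELF), the DRB sensitivity-inducing factor (DSIF) and the polymerase-associated factor complex (PAF) are encoded here by 10 genes of the 57820 in the count tables. NELFA, NELFB, NELFCD and NELFE encode NELF, SUPT4H1 and SUPT5H encode DSIF, and PAF1, LEO1, CTR9 and CDC73 encode the PAF subunits listed here. The genes were taken by name, through the gene identifiers of the tables; older names are WHSC2 for NELFA, COBRA1 for NELFB, TH1L for NELFCD and RDBP for NELFE. All 10 passed the filter on low counts in every comparison.

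The cells were T47D-MTVL, a line of the luminal breast cancer cell line T47D that carries a luciferase reporter under the MMTV promoter. They were kept in charcoal-treated serum without R5020, a synthetic progestin, and were measured in 6 groups of 2 libraries. Both siRNA groups of poly(A) RNA were transfected, one with siPADI2, which targets PADI2, the other with siCtrl, a control siRNA. A second pair of poly(A) groups expressed HA-tagged RNA polymerase II that resists alpha-amanitin, either with the R1810A change or as wild type (WT), for 24 h and then 12 h with 6 µg/ml alpha-amanitin. Chromatin-associated RNA was taken from a further pair of siPADI2 and siCtrl groups. PADI2 converts arginine residues of proteins to citrulline, and R1810 is an arginine of the polymerase's C-terminal domain. The comparisons ask how loss of this enzyme, or of this arginine, changes RNA levels. Whether libraries of 1 group are separate cultures is not labelled, and p-values therefore reflect differences among these libraries alone, possibly technical ones.

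NELF and DSIF bind RNA polymerase II shortly after initiation and hold it near the promoter. The kinase P-TEFb phosphorylates DSIF, NELF and the polymerase, after which NELF leaves, DSIF turns into an elongation factor and PAF joins the moving polymerase. PAF also serves as a platform for the enzymes that ubiquitinate histone H2B and methylate histone H3 in transcribed genes.

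Poly(A) libraries held 44318629 to 132764704 counts, against 2720080 to 7040541 in chromatin libraries, where both siPADI2 libraries were the shallowest. Each of the 10 genes had 1508 to 22321 counts per poly(A) library and 34 to 515 per chromatin library. PADI2 had 1.83 and 1.88 CPM (counts scaled to the library size, with TMM) in siPADI2 poly(A) libraries, against 24.0 and 22.6 CPM in siCtrl. In chromatin RNA PADI2 stood at 8.52 and 14.2 CPM after siPADI2, against 34.9 and 32.5 CPM after siCtrl. Libraries labelled R1810A also had low PADI2, at 3.13 and 2.35 CPM against 48.9 and 50.7 CPM in WT, although their labels name no siRNA. POLR2A, the gene of the largest polymerase subunit, had 311 and 306 CPM after siPADI2 against 489 and 401 CPM after siCtrl, and 361 and 363 CPM in R1810A against 514 and 528 CPM in WT. Its counts in the R1810A and WT groups cannot separate the introduced polymerase from the cell's own gene. Of 8 luminal markers, TFF1 was near 0 in poly(A) RNA, and the summed level of the list was 4507 to 4916 CPM after siPADI2 against 8495 to 9565 CPM after siCtrl, and 4732 to 5404 CPM in R1810A against 8459 to 8942 CPM in WT. In chromatin RNA it was 953 to 1369 CPM after siPADI2 against 2158 to 2279 CPM after siCtrl. Within the list the fall was uneven. In poly(A) RNA, KRT19 had a mean of 1055 CPM after siPADI2 against 3581 CPM after siCtrl, and KRT18 1242 CPM against 1401 CPM. FOXA1 had 358 CPM in R1810A against 389 CPM in WT. The part of this shift in the results below was not tested. In bulk RNA, fewer cells of a type and less RNA per cell cannot be told apart.

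NELFCD, SUPT4H1 and LEO1 had less poly(A) RNA after siPADI2, and their promoters, with that of SUPT5H, the DSIF partner that was higher, are shown here to let their start regions be read side by side. RefSeq (GRCh38.p14) gave 250 bases before to 50 bases after the start for 9 of the 10 genes; CDC73 is named only. On that build the windows are chr20:58981006-58981305 (plus strand), chr17:58352152-58352451 (minus strand), chr15:51971729-51972028 (minus strand) and chr19:39445332-39445631 (plus strand, the first of 2 entries). Capitals mark exact matches on either strand. The letters searched were CCGGAA for the ETS core, GCGCATGC for an NRF1 site, AAGATGG for a YY1 site, GGGCGG for the GC box, CCAAT for the box of that name, TATAAA for the TATA box and CACGTG for the E-box.
NELFCD: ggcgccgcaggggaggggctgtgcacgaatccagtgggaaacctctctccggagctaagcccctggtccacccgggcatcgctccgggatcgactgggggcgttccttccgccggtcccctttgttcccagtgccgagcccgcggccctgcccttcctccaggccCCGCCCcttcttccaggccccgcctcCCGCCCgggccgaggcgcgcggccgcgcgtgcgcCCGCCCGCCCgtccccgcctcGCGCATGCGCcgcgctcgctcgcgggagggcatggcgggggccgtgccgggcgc
SUPT4H1: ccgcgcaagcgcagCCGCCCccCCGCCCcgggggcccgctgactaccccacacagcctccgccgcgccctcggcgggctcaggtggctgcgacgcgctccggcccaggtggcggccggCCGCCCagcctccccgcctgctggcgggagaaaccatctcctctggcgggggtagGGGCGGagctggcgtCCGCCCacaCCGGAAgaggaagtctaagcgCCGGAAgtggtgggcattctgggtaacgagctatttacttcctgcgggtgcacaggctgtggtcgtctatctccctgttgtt
LEO1: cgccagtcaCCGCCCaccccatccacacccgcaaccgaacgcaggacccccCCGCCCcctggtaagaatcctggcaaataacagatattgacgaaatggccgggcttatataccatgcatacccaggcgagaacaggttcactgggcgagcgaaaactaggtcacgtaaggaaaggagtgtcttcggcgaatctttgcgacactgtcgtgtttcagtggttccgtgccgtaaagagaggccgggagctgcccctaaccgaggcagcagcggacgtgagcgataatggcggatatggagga
SUPT5H: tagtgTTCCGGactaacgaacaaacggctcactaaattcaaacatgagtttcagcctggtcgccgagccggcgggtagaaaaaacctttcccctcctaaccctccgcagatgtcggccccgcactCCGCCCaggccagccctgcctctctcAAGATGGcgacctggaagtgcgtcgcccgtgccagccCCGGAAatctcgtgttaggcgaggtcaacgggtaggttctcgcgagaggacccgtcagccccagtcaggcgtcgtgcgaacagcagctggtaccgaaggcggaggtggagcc
GGGCGG was found in 8 of 9 genes, against 15786 of the 35116 promoters in the table, and CCGGAA in 5 of 9, against 17.2%. Letters of the TATA box and of the E-box did not occur in these windows, against 11.5% and 7.26% of all promoters. The 3 genes that were lower share no letters beyond the GC box. NELFCD has a palindromic GCGCATGCGC, which NELFB, a gene that was higher, also has, and GCGCATGC stands in 3.05% of all promoters. SUPT4H1 has CCGGAA at 2 places, as has SUPT5H, and LEO1 has neither motif. AAGATGG occurred in NELFA and SUPT5H, against 5.84% of all promoters. CCAAT occurred 3 times in PAF1 and in no other of the 9, against 34.6%. In NELFE a CCGGAA and the reverse of GGGCGG overlap. A match describes the letters of a window and no more.

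Per kilobase of exon, the 10 genes were far from equal. In TPM, counts scaled by exonic length and then to a fixed total, SUPT4H1 was the highest of the 10 in all 4 poly(A) groups, at 197 and 198 TPM after siPADI2, 248 and 252 TPM after siCtrl, 176 and 204 TPM in R1810A and 179.9 and 211 TPM in WT. NELFA was the lowest in all 4, at 21.5 ± 1.6, 17.5 ± 3.2, 12.3 ± 2.0 and 13.2 ± 1.2 TPM in the same groups (mean ± SD, n = 2 each). The next-highest gene, NELFB or NELFE, and the next-lowest did not overlap SUPT4H1 and NELFA in any of the 4 groups. Within NELF, the highest subunit exceeded NELFA 7.63-fold after siPADI2 and 6.12-fold after siCtrl. The 4 listed PAF genes lay close together, within 1.41-fold after siPADI2 and 1.63-fold after siCtrl. RTF1 and SKIC8, taken here as PAF-associated and not among the 10, had means of 75.1 and 18.3 TPM after siPADI2. After siCtrl they had 60.8 and 18.9 TPM, so SKIC8 lay well below the 4. TPM were not TMM-scaled, so they order genes within a group and do not measure change between groups. In CPM, RTF1 had a mean of 109 after siPADI2 and 109 after siCtrl, and SKIC8 33.3 and 42.9. After siPADI2 the order of the middle genes differed from that after siCtrl: LEO1 ranked 8 against 3, and NELFCD 9 against 5. Neighbours whose ranges overlapped after siPADI2 were CDC73 with CTR9 and SUPT5H with LEO1, and after siCtrl NELFB with LEO1 and CDC73 with PAF1. DSIF is a dimer of 1 SUPT4H1 and 1 SUPT5H protein. The ratio of their TPM was 2.35 after siPADI2 against 4.87 after siCtrl, and 2.95 in R1810A against 3.95 in WT. These are ratios of RNA, and the proteins were not measured here. In CPM, which ignore length, SUPT4H1 and SUPT5H had means of 103 and 173 after siPADI2, and 162 and 131 after siCtrl. TPM divides by all annotated exonic bases, 2076 for SUPT4H1, 8191 for SUPT5H, 5935 for NELFA and 2698 for NELFB. Transcripts in these cells may hold fewer, and the part of this in the levels was not tested.

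**Figure D1:**
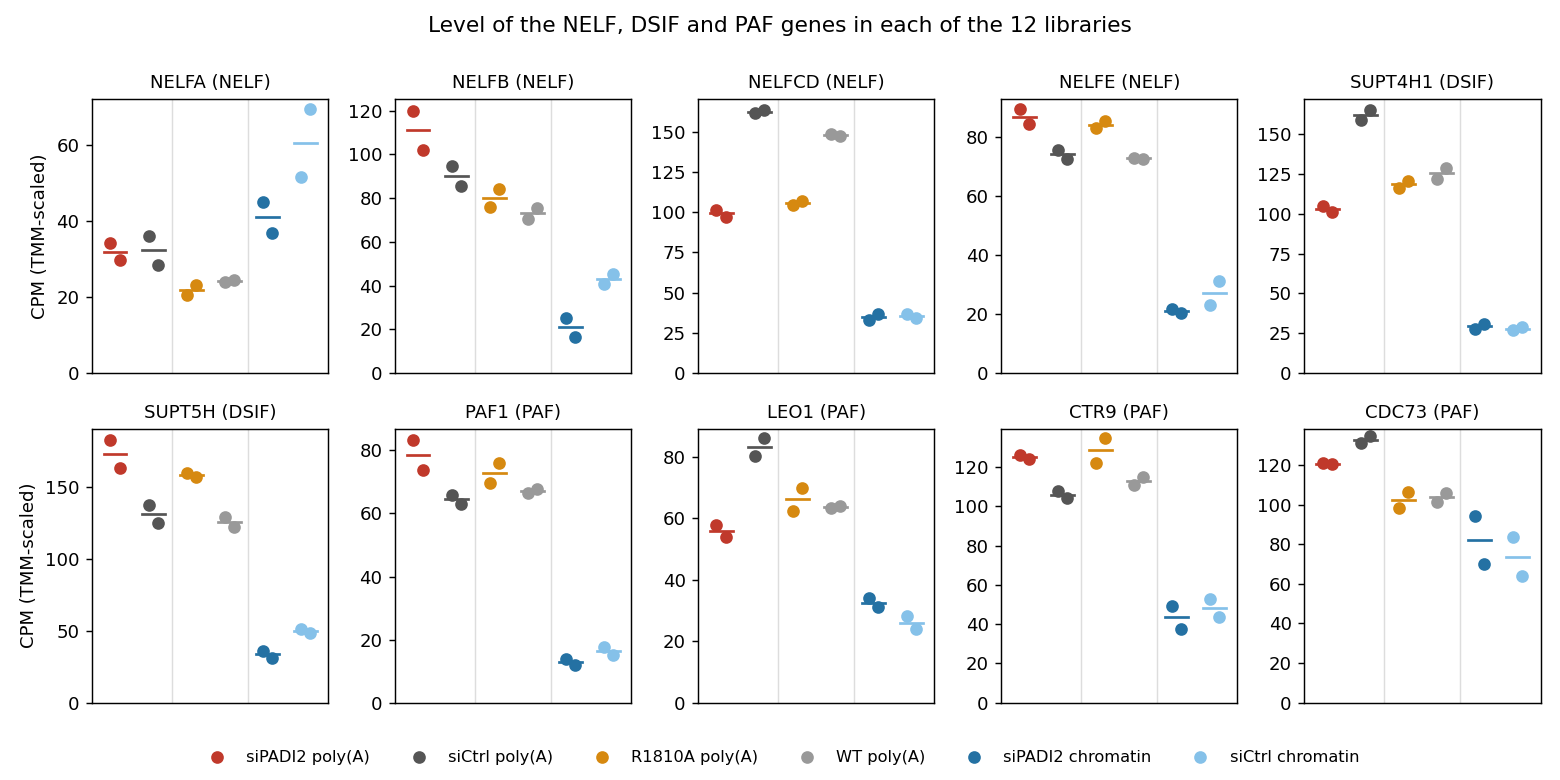
Level of each gene in CPM (vertical axis, from 0, a scale per gene) in the 12 libraries: points are libraries, horizontal lines are group means of 2. CPM were scaled separately in each comparison, so heights are to be read within a comparison and not between them. NELFCD, SUPT4H1 and LEO1 lie lower in siPADI2 than in siCtrl poly(A) libraries, and NELFCD also lies lower in R1810A than in WT.

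After siPADI2, poly(A) RNA of 8 of the 10 genes differed from siCtrl at an edgeR adjusted p under 0.05, 5 higher and 3 lower. Over all genes tested, 56.7% were called (28.8% higher and 27.9% lower), so a call by itself was common. Each complex held genes of both directions: NELFCD, SUPT4H1 and LEO1 were lower, while NELFB, NELFE, SUPT5H, PAF1 and CTR9 were higher. None passed a test against a fold of 1.5, which 18.9% of all genes passed.

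NELFCD (ENSG00000101158.8, hg19 chr20:57556263-57570188, plus strand) encodes the subunit that is made as NELF-C or NELF-D from alternative starts. It had 101 and 97.0 CPM after siPADI2, against 161 and 164 CPM after siCtrl. The log2 fold change was -0.71 ± 0.082 (SE; edgeR adjusted p = 1.19e-09). NELFB (ENSG00000188986.4, chr9:140149625-140167998, plus strand), a subunit also known as a cofactor of BRCA1, had 120.1 and 102 CPM after siPADI2, against 94.7 and 85.4 CPM after siCtrl. That made a log2 fold change of 0.30 ± 0.088 (edgeR adjusted p = 0.00355). NELFE (ENSG00000204356.7, chr6:31919864-31926887, minus strand), the RNA-binding subunit, had 89.4 and 84.4 CPM after siPADI2, against 75.6 and 72.7 CPM after siCtrl. Its log2 fold change was 0.23 ± 0.082 (edgeR adjusted p = 0.0164). NELFA (ENSG00000185049.8, chr4:1984441-2043630, minus strand), which contacts the polymerase, had 34.2 and 29.8 CPM after siPADI2, against 36.2 and 28.5 CPM after siCtrl. Its groups overlapped (log2 fold change -0.01, 95% interval -0.22 to 0.21).

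The DSIF partners differed in opposite directions. SUPT4H1 (ENSG00000213246.2, chr17:56422539-56430454, minus strand), the small zinc-finger subunit, had 105 and 101 CPM after siPADI2, against 159 and 165 CPM after siCtrl. That is a log2 fold change of -0.65 ± 0.082 (edgeR adjusted p = 8.74e-09). Of the 2076 exonic bases of SUPT4H1, 143 are shared with RNF43 on the same strand and 577 with TSPOAP1-AS1 on the other, which stranded counting keeps apart. Smaller same-strand overlaps with unnamed genes cover 102 of 2719 exonic bases of NELFE, 94 of 5935 of NELFA and 90 of 8191 of SUPT5H, and the counts of these 4 genes are uncertain to that extent. SUPT5H (ENSG00000196235.9, chr19:39926796-39967310, plus strand), the large subunit with the repeats that P-TEFb phosphorylates, had 183 and 163 CPM after siPADI2, against 137 and 125 CPM after siCtrl. Its log2 fold change was 0.40 ± 0.085 (edgeR adjusted p = 0.000108).

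LEO1 (ENSG00000166477.8, chr15:52230222-52264003, minus strand), a PAF subunit that pairs with PAF1, had 57.8 and 54.1 CPM after siPADI2, against 80.3 and 86.1 CPM after siCtrl. It was lower, with a log2 fold change of -0.57 ± 0.084 (edgeR adjusted p = 2.39e-07). PAF1 (ENSG00000006712.10, chr19:39876492-39881835, minus strand), its partner, had 83.3 and 73.8 CPM after siPADI2, against 65.9 and 63.0 CPM after siCtrl. Here the change was 0.29 ± 0.085 on the log2 scale (edgeR adjusted p = 0.00415), opposite to that of LEO1. CTR9 (ENSG00000198730.3, chr11:10772534-10801290, plus strand), the scaffold of the complex, had 126 and 124 CPM after siPADI2, against 108 and 104 CPM after siCtrl. Its log2 fold change was 0.24 ± 0.081 (edgeR adjusted p = 0.0112). CDC73 (ENSG00000134371.9, chr1:193091147-193223031, plus strand), which encodes the tumour suppressor parafibromin, had 120.8 and 120.5 CPM after siPADI2, against 131 and 135 CPM after siCtrl. The difference missed the threshold (log2 fold change -0.14, edgeR adjusted p = 0.141). Without siPADI2 replicate 1, the higher calls of NELFB, NELFE, PAF1 and CTR9 were lost and 4 genes remained called, NELFCD, SUPT4H1, LEO1 and SUPT5H.

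**Figure D2:**
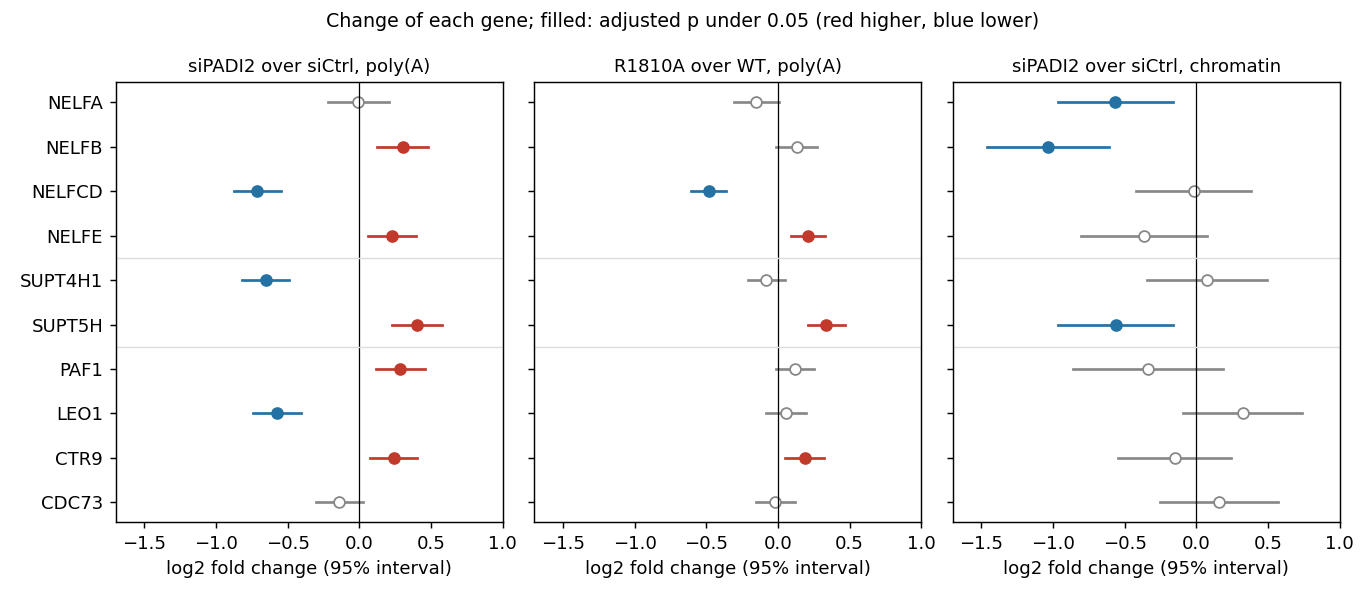
Log2 fold change of each gene (horizontal axis, points, with 95% intervals as lines) in the 3 comparisons, genes grouped by complex from NELF at the top to PAF. Filled red points were called higher and filled blue points lower at an edgeR adjusted p under 0.05; open points were not called.

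In R1810A libraries, 4 of the 10 genes differed from WT, 3 higher and 1 lower, where 46.9% of all genes tested were called (22.6% higher and 24.3% lower). The share among the 10 is near that background. NELFCD was again lower, at 105 and 107 CPM in R1810A against 149 and 147 CPM in WT (log2 fold change -0.48 ± 0.058, edgeR adjusted p = 1.54e-05). SUPT5H was higher, at 159.9 and 157 CPM in R1810A against 129 and 122 CPM in WT (0.34 ± 0.060 on the log2 scale, edgeR adjusted p = 0.000449). NELFE had 83.2 and 85.4 CPM in R1810A, against 73.0 and 72.7 CPM in WT, and was higher (0.21 ± 0.056, edgeR adjusted p = 0.00752). CTR9, at 122 and 135 CPM in R1810A against 111 and 115 CPM in WT, was higher with an edgeR adjusted p of 0.0286. For none of these 4 genes did the R1810A and WT ranges overlap, which also held for 72.4% of all genes tested. Without WT replicate 1, NELFE and CTR9 were no longer called.

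LEO1 had 62.4 and 69.9 CPM in R1810A, against 63.4 and 64.0 CPM in WT, so its ranges overlapped (log2 fold change 0.06, 95% interval -0.08 to 0.20). SUPT4H1 had 116 and 121 CPM in R1810A, against 122 and 129 CPM in WT (-0.08, 95% interval -0.21 to 0.05). For PAF1 and NELFB the log2 fold changes were 0.12 and 0.13, for NELFA -0.15 and for CDC73 -0.02, none past the threshold. Of the 10, none passed a test against a fold of 1.5, which 11.0% of all genes passed.

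Whether the siPADI2 effect differed from the R1810A effect was tested in a joint fit of the 8 poly(A) libraries, in which 26.1% of genes tested were called. LEO1 had a difference, the siPADI2 effect minus the R1810A effect, of -0.65 ± 0.098 on the log2 scale (SE; edgeR adjusted p = 0.000216). For SUPT4H1 the difference was -0.60 ± 0.090 (edgeR adjusted p = 0.000236). For NELFCD it was smaller, -0.25 ± 0.085 (edgeR adjusted p = 0.0396), and it was lost in 3 of the alternative settings and without each of 6 libraries. The other 7 genes did not pass. Among them SUPT5H had a difference of 0.04 (95% interval -0.19 to 0.26) and NELFE of -0.01 (95% interval -0.19 to 0.18). PADI2 itself was low in both contrasts, and the siRNA and polymerase experiments also differ in transfection and alpha-amanitin.

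In chromatin-associated RNA after siPADI2, 3 of the 10 genes were lower than in siCtrl and 0 higher, where 32.4% of all genes tested were called (12.2% higher and 20.1% lower), a share near that background. NELFB had 25.2 and 16.7 CPM after siPADI2, against 40.5 and 45.3 CPM after siCtrl. It was lower after siPADI2 (log2 fold change -1.04 ± 0.22, edgeR adjusted p = 2.88e-05). NELFA had 45.1 and 36.8 CPM after siPADI2, against 51.6 and 69.6 CPM after siCtrl (-0.57 ± 0.20, edgeR adjusted p = 0.0224). SUPT5H had 36.2 and 31.2 CPM after siPADI2, against 51.4 and 48.3 CPM after siCtrl (-0.56 ± 0.21, edgeR adjusted p = 0.0232). The 3 genes that were lower in poly(A) RNA did not pass here. LEO1 had 34.1 and 31.2 CPM after siPADI2, against 28.2 and 24.0 CPM after siCtrl (log2 fold change 0.32, 95% interval -0.09 to 0.74). NELFCD had 33.0 and 36.8 CPM after siPADI2, against 36.6 and 34.2 CPM after siCtrl, with overlapping ranges (-0.02, 95% interval -0.42 to 0.38). SUPT4H1 had 27.7 and 30.8 CPM after siPADI2, against 26.9 and 28.7 CPM after siCtrl (0.07, 95% interval -0.35 to 0.49). NELFE, PAF1, CTR9 and CDC73 had log2 fold changes of -0.36, -0.34, -0.15 and 0.16, none past the threshold. NELFA and SUPT5H were no longer called without siCtrl replicate 5 or without siPADI2 replicate 2, which left NELFB.

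GC content moved with the chromatin result. Among genes with a mean of at least 10 CPM, the median chromatin log2 fold change was 0.26 for those under 45% GC, -0.22 for 45 to 60% and -0.97 for 60% or more. NELFB has the highest GC content of the 10, 64.4%, followed by NELFA at 61.4% and SUPT5H at 58.2%, and CDC73 has the lowest, 35.7%. With the GC trend of each library taken out, 0 of the 10 genes were called in chromatin RNA, where 15.2% of all genes were. The log2 fold change of NELFB was then -0.03 ± 0.19, that of NELFA 0.41 ± 0.18 and that of SUPT5H 0.25 ± 0.18 (SE). In poly(A) RNA the same GC classes had medians of 0.05, -0.06 and -0.01 after siPADI2, and there the correction left the 8 genes called, where 59.8% of all genes were, with NELFCD at -0.72, SUPT4H1 at -0.58, LEO1 at -0.63 and SUPT5H at 0.47. It added CDC73 as lower, at -0.31 (edgeR adjusted p = 0.000405). In R1810A the correction ended the call of CTR9 (edgeR adjusted p = 0.0789) and gave one for PAF1 at 0.21 (edgeR adjusted p = 0.0441), so 4 genes were called, against 44.2% of all genes.

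**Figure D3:**
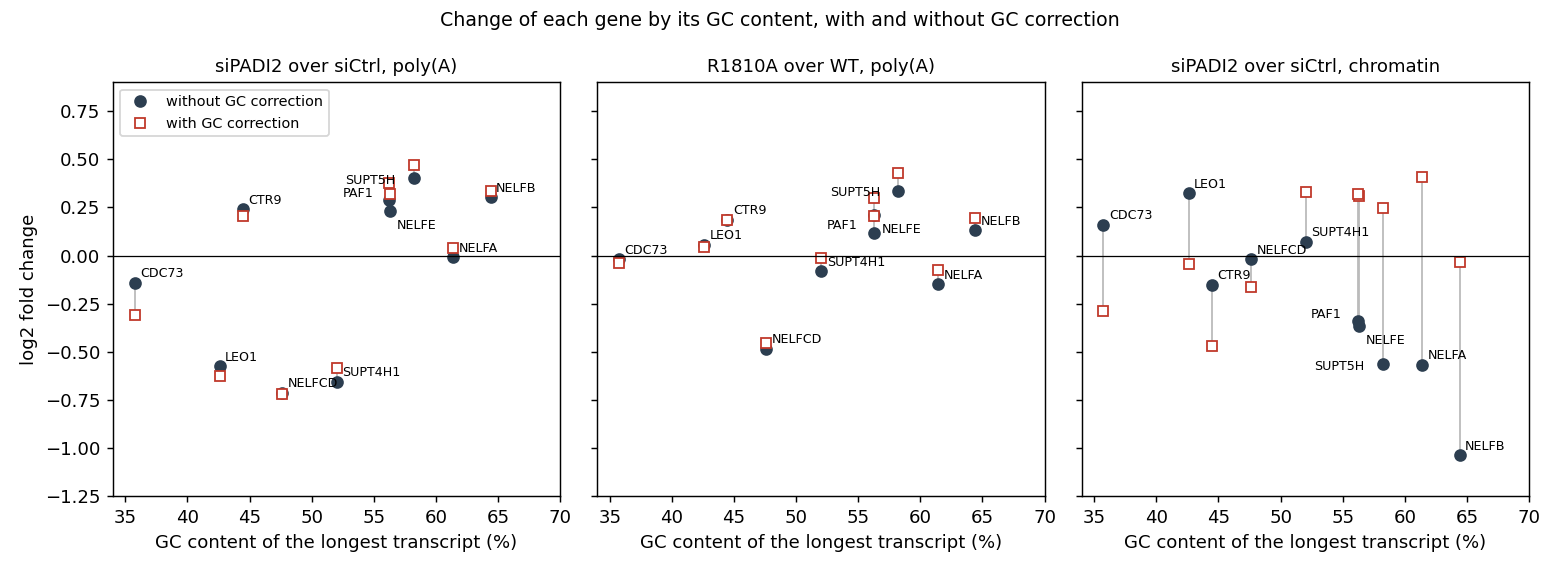
Log2 fold change (vertical axis) of each gene against the GC content of its longest transcript (horizontal axis, %), without GC correction as filled circles and with it as open squares, in the 3 comparisons. In chromatin RNA the circles of the GC-rich genes NELFB, NELFA and SUPT5H lie below 0 and their squares between -0.03 and 0.41; in poly(A) RNA the symbols of a gene lie closer together.

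The chromatin effect was set against the poly(A) effect in a joint fit of the 8 siRNA libraries, in which 8.05% of genes tested were called and the median over all genes was -0.16. NELFB differed by -1.55 ± 0.39 (edgeR adjusted p = 0.0023) and SUPT5H by -1.18 ± 0.39 (edgeR adjusted p = 0.0326), each lower in chromatin RNA and higher in poly(A) RNA after siPADI2. With GC correction these differences were -0.21 and 0.07, with no call. LEO1 differed the other way, by 0.70 (95% interval -0.05 to 1.46), which did not pass, although it did with DESeq2 at 1.08 (DESeq2 adjusted p = 3.44e-06).

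Chromatin levels were compared with a background, to which SUPT5H, PAF1 and NELFCD stood nearest. A group of 1154 protein-coding genes of at least 1000 exonic bases that had 0 counts in all 8 poly(A) libraries still had a count in 80.4% to 83.4% of cases per chromatin library, with a median of 1.04 to 1.57 TPM. This group was chosen after the chromatin values had been seen. The 10 genes stood 2.39 to 12.8 times above that median. SUPT5H was lowest in siPADI2 replicate 2, where 87.3% of the silent genes lay below it, and CDC73 was highest in siPADI2 replicate 1. In siCtrl replicate 5, 89.4% of the silent genes lay below NELFCD. Markers of other cells (7 of 8 matched), which summed to 51.9 to 78.7 CPM in poly(A) libraries, most of it COL1A1, summed to 161 to 181 CPM in siPADI2 and 209 to 234 CPM in siCtrl chromatin. Among them the blood-cell gene PTPRC had 51.7 to 58.9 CPM after siPADI2 and 40.0 to 40.2 CPM after siCtrl, and at most 0.0401 CPM in any poly(A) library. The part of such signal in the chromatin values of the 10 genes was not tested.

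**Figure D4:**
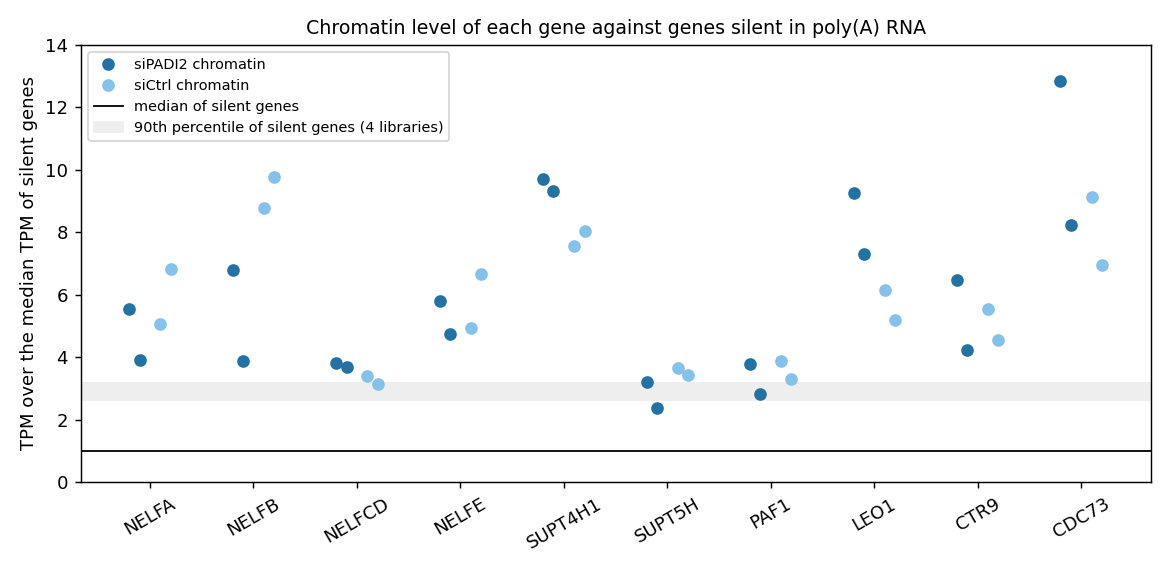
TPM of each gene in each chromatin library over the median TPM of the 1154 silent genes in the same library (vertical axis); dark points are siPADI2, light points siCtrl, the line marks the silent median and the band the 90th percentile, 2.64 to 3.19 times the median. SUPT5H has a point below the band, at 2.39, and PAF1 and NELFCD have points within it, at 2.84 and 3.15. CDC73 has the highest point, 12.8.

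In each complex, the gene with the largest root mean square of its log2 fold changes in the 3 comparisons was taken. The 3 genes most like it were sought among 9752 genes, by the root mean square difference of these changes. NELFB was closest to PLEKHG6, POLM and ZC3H4, at 0.0297, 0.0369 and 0.0383. ZC3H4, a zinc-finger protein of transcription termination, changed by 0.36 after siPADI2 and 0.15 in R1810A in poly(A) RNA, and by -1.06 in chromatin RNA. SUPT5H was closest to UNC13D, HDLBP and MSTO1, with differences of 0.0379, 0.0422 and 0.0422. LEO1 was closest to GTF2B, SEC24D and GPSM2, at 0.0353, 0.0560 and 0.0598. GTF2B, which encodes the initiation factor TFIIB, changed by -0.52 after siPADI2, 0.04 in R1810A and 0.34 in chromatin RNA. With 3 comparisons, likeness is a description of these values only, and it was not computed with GC correction. The chromatin values of NELFB and SUPT5H became -0.03 and 0.25 with that correction. Genes of 60% GC or more had a chromatin median of -0.97 without it, and NELFB has 64.4% GC. After siPADI2 in poly(A) RNA, NELFCD at -0.71 and SUPT4H1 at -0.65 changed more than NELFB and SUPT5H.

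Other genes of the elongation pathway were taken as 8 lists of 53 genes in all. After siPADI2 in poly(A) RNA, 22 were higher, 7 lower and 24 did not pass, where 28.8% of all genes tested were called higher and 27.9% lower, with a median log2 fold change of 0.10 against 0.0050 over all genes tested. In R1810A 15 were higher and 13 lower, near the 22.6% and 24.3% over all genes, with a median of -0.02 against -0.02. In siPADI2 chromatin RNA 1 was higher and 12 lower, where 12.2% and 20.1% of all genes were, with a median of -0.09 against 0.03. The counts of the single lists below are small and are to be read against these same shares. The signed difference, siPADI2 minus R1810A effect, was called higher in 12 of the 53 and lower in 0. Over all genes tested, 11.8% were called higher and 14.3% lower in it. A higher call need not mean a larger siPADI2 effect. AFF4, among the 12, had a mean of 146 CPM in R1810A against 261 CPM in WT, and 198 CPM after siPADI2 against 237 CPM after siCtrl.

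P-TEFb with the 7SK proteins that hold it inactive gave 5 higher and 0 lower of 8 after siPADI2 (28.8% and 27.9% over all genes). CDK9, its kinase, had a log2 fold change of 0.52, the cyclin CCNT1 0.55 and LARP7, which binds 7SK RNA, 0.36. In R1810A this list gave 2 higher (CCNT1 at 0.40 and HEXIM2, a P-TEFb inhibitor, at 0.25) and 1 lower. Super elongation complex and ELL-related genes gave 6 higher and 1 lower of 11 after siPADI2 (28.8% and 27.9% over all genes). MLLT3 and ELL3 at 0.66 and ELL at 0.63 led this list. In R1810A the same list gave 6 higher and 2 lower of 11 (22.6% and 24.3% over all genes). EAF2 stood at 0.85 there, MLLT3 at 0.60 and the scaffold AFF4 at -0.84. Of the PAF-associated pair, SKIC8 was lower after siPADI2 (-0.37), and in R1810A both SKIC8 (-0.34) and RTF1 (-0.20) were lower.

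Enzymes of PAF-dependent histone marks gave 3 higher of 7 after siPADI2, where 28.8% of all genes were: DOT1L, the H3K79 methyltransferase, at 1.15, UBE2B at 0.21 and RNF20, an H2B ubiquitin ligase, at 0.20. In R1810A RNF20 (0.35) and DOT1L (0.22) were among 3 higher, and SETD2, an H3K36 methyltransferase, was lower (-0.26). The CTD kinases gave CDK13 at 0.47 and CDK12 at 0.22 after siPADI2, with their cyclin CCNK at -0.39; in R1810A CCNK was lower (-0.23). Elongation chaperones gave 1 higher (IWS1, 0.55) and 2 lower (SSRP1, -0.49, and ELOF1, -0.36) of 5 after siPADI2, with 28.8% and 27.9% over all genes. In R1810A 3 of the 5 were lower, SSRP1 (-0.27), SUPT6H (-0.24) and SUPT16H (-0.23). TFIIS genes gave TCEA2 at 0.65 and TCEA3 at 0.23 after siPADI2, and TCEA1 at -0.42, TCEA3 at -0.29 and TCEA2 at 0.33 in R1810A. Integrator, which can end transcription at paused polymerases, gave 3 higher and 2 lower of 14 after siPADI2 (INTS8 0.60, INTS2 0.47, INTS7 -0.44), and 3 higher and 1 lower in R1810A (INTS4 0.34, INTS7 -0.30, INTS8 0.27). Both Integrator counts lie below the shares called over all genes, 56.7% after siPADI2 and 46.9% in R1810A.

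In chromatin RNA, where the GC trend above also holds, the called genes of these lists were MLLT3, higher at 0.57 (named after its value was seen), and 12 lower. The lower ones included MLLT1 at -2.16, HEXIM2 at -1.33, TCEA2 at -1.33, ELL at -1.32, INTS1 at -1.23 and DOT1L at -1.12.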

How the data were processed

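Poly(A) RNA (8 libraries) and chromatin-associated RNA (4 libraries) of T47D-MTVL cells were sequenced, with TruSeq Stranded mRNA and TruSeq Stranded Total RNA Ribo-Zero kits (from the labels' protocols). Values were deposited as whole-number counts per gene: per the file headers, the authors counted read pairs with featureCounts 1.5.1 (poly(A)) and 1.4.6-p2 (chromatin) in reverse-stranded mode against GENCODE 19 on hg19, without multi-mapped reads. Trimmomatic and STAR are named in the submitters' processing notes, and their settings are not given in the sources used here. Exonic lengths are the deposited length column.

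Every comparison was a separate fit of its 4 libraries in edgeR 4.0.16 (R 4.3.3; filterByExpr, TMM, robust quasi-likelihood F test, Benjamini-Hochberg over all genes tested, threshold 0.05), and the 2 differences between comparisons in joint fits of 8 libraries. Standard errors were taken from the F statistic. CPM use the TMM sizes of the 4-library fit, and TPM the exonic lengths. GC correction took each library's trend of log2 CPM on the GC content of the longest GENCODE 29 transcript as an offset. Counting error bounds precision: chromatin counts per gene were as low as 34. Alternatives were other size factors, DESeq2 1.42.0, no filter, a fold of 1.5, GC correction, joint fits, a replicate block and leaving out each library. The fit was tested on simulated data. No 2 libraries of a group held near-identical counts.

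The 10 genes, the pathway lists and the markers were chosen with earlier results of these data known. Besides the 10, PADI2 and POLR2A, the text names at most the 3 called genes with the largest absolute log2 fold change per list and comparison, and for the most changed gene of each complex the 3 most similar genes with a mean of at least 10 CPM in poly(A) RNA. 1 gene that this rule would name is not reported here.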

Additional observations from a re-analysis of the deposited data

Results flagged for a closer look

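For 3 genes the siPADI2 effect in poly(A) RNA differed from the R1810A effect by a test of the difference itself, in a joint edgeR fit of 8 libraries. That is 3 of 10, near the 26.1% of all genes called in this difference. The difference in log2 fold change was -0.65 for LEO1, -0.60 for SUPT4H1 and -0.25 for NELFCD. LEO1 and SUPT4H1 were called with total counts, DESeq2-type size factors, DESeq2, no filter, GC correction, the replicate block and any 1 library left out, and NELFCD was not called in all of these. A fold of 1.5 was not tested for this difference. The low PADI2 of the R1810A libraries stands beside these values, and its part in them was not tested.

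For 2 genes the siPADI2 effect in chromatin RNA differed from that in poly(A) RNA by the same kind of test, NELFB by -1.55 and SUPT5H by -1.18, where 8.05% of all genes were called. Both calls were lost with GC correction, at -0.21 and 0.07. The kits and depths of the RNA fractions also differ and cannot be told apart from the fraction.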

How the results depend on the processing

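Of the 10 genes, 8 were called after siPADI2 in poly(A) RNA, and 8 or 9 under every alternative except a test against a fold of 1.5 (0) and leaving out a library (4 to 8, with 4 without siPADI2 replicate 1). In R1810A the 4 calls became 0 against a fold of 1.5 and ranged from 2 (without WT replicate 1) to 6 with a library left out. The 3 chromatin calls became 1 with total counts as library sizes, 1 with DESeq2, 1 against a fold of 1.5, 1 in the joint fit, 0 with GC correction, and 1 to 2 with a library left out. The chromatin minus poly(A) difference, called for 2 genes, was called for 7 with total counts (12.9% of all genes), for 5 with DESeq2-type size factors (13.8%), for 5 with DESeq2 (11.8%) and for 0 to 7 with a library left out (5.22% to 15.8%); it was 0 without siPADI2 poly(A) replicate 1. The siPADI2 minus R1810A difference was called for 2 to 3 genes throughout. Where a lone library was left in a group, it was assumed to vary like the others.

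With the replicate number as a block, 8 genes were called after siPADI2, 7 in R1810A (5 higher and 2 lower) and 3 in their difference, where 61.5%, 65.5% and 39.0% of all genes were called under the block. Deviations of same-numbered libraries correlated at 0.1 for siPADI2 and 0.439 for R1810A over genes; with only 2 pairs the numbers were not taken as pairs. In chromatin RNA no paired analysis was possible because the groups share only 1 number.

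Directions reversed for genes that were not called, for NELFA and SUPT5H in chromatin RNA, and for SUPT5H in the chromatin minus poly(A) difference. After siPADI2 in poly(A) RNA, NELFA was 0.17 with total counts, 0.030 with no filter, 0.039 with GC correction, 0.0074 in the joint fit and -0.18 to 0.16 with a library left out, and CDC73 was 0.042 with total counts. In R1810A, CDC73 was 0.044 with total counts, 0.021 in the joint fit and -0.075 to 0.040 with a library left out, where LEO1 ran over -0.029 to 0.14. In chromatin RNA with GC correction, NELFA was 0.41, NELFE 0.31, SUPT5H 0.25, PAF1 0.32, LEO1 -0.046 and CDC73 -0.29. NELFCD was 0.10 there with total counts, and with a library left out NELFCD ran over -0.11 to 0.053, SUPT4H1 over -0.0013 to 0.14, CTR9 over -0.37 to 0.036 and CDC73 over -0.077 to 0.36. In the siPADI2 minus R1810A difference NELFE was 0.14 with total counts, 0.080 with no filter and 0.024 with GC correction. With a library left out, NELFE ran over -0.050 to 0.044 in it, NELFA over -0.047 to 0.29, SUPT5H over -0.050 to 0.13 and CTR9 over -0.014 to 0.13. In the chromatin minus poly(A) difference with GC correction, NELFA was 0.60, NELFE 0.30, SUPT5H 0.073, PAF1 0.25 and CDC73 -0.26, and CDC73 ran over -0.19 to 0.53 with a library left out. The cause of these changes was not tested. Total counts moved the median of all genes to 0.19 after siPADI2 in poly(A) RNA and to 0.14 in chromatin RNA. Chromatin depth, at most 7040541 counts per library, limits what those libraries can show.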
